A study of Mus musculus with 12 samples.

Results

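Dntt, Ebf1, Pax5, Rag1, Rag2, Igll1, Vpreb1, Cd79a and Cd79b are 9 genes of the early B lineage, taken as a list by gene symbol. Each gene was read from the 1 probe set that named it alone and had the highest mean log2 intensity over the 12 arrays, and dim genes were kept. A probe set of its own was found for 8 of the 9 genes, among 18820 named genes in all. The probe set that lists Rag1 lists a second gene too, so no value is given for Rag1.

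All cells were EML1 cells, a haematopoietic progenitor line derived from male BDF1 mouse marrow and carrying the retroviral vector LRARalpha403SN in every group. They also carried TEL-AML1 in the lentiviral vector pWPI, or pWPI alone. TEL-AML1 joins ETV6 to RUNX1, a DNA-binding factor of blood development, and is known from childhood B-cell precursor leukaemia. Total RNA was hybridised to Affymetrix arrays, 2 for each of 6 groups: TEL-AML1 untreated, TEL-AML1 at day 5, TEL-AML1 at day 7, empty vector untreated, empty vector at day 5 and empty vector at day 7. Day 5 and day 7 are times with the cytokines IL7 and FLT3L, which the culture protocol gives at 10 ng/ml and 80 ng/ml, added to EML1 cells plated on OP9 stromal cells in another medium. The sample names mention the cytokines alone, and the stromal layer is read from the protocol. The promoter that drives TEL-AML1, and whether the infected cells were 1 clone, were not given in the sources used here. Nothing in the labels says that the 2 arrays of a group came from separate cultures. Every limma p-value below therefore rests on a spread between arrays, which may be technical. In the main fit that spread is pooled over the 6 groups, so it is not the spread of the compared arrays alone. The permutation p-values for Ebf1 treat the arrays as exchangeable and rest on no spread between replicates.

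In mouse marrow, lymphoid progenitors begin to transcribe recombination genes before they are committed to the B lineage. EBF1 then acts with E2A proteins and PAX5 to switch on the pre-B cell receptor. That receptor is an immunoglobulin heavy chain held by the surrogate light chain, made of IGLL1 and VPREB1, and it signals through CD79A and CD79B. RAG1 and RAG2 cut the immunoglobulin gene segments, and DNTT, terminal deoxynucleotidyl transferase, adds nucleotides without a template at the joints.

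The promoters of the 2 genes that passed a test below are shown because RUNX1, the DNA-binding partner within TEL-AML1, is known to bind a short DNA word. They are RefSeq sequences of build GRCm38.p6, read 5′ to 3′ on the + strand, from 250 bases before to 50 bases after the annotated start. The table held promoters for 8 of the 9 genes, 9 in all because Ebf1 has 2 starts. Capitals mark exact matches, on either strand, to the words searched: TGTGGT (RUNX), CCCNNGGG (EBF), CAGNTG (the E-box of E2A) and GGGAA (Ikaros). No 2 matches printed here overlap.

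Dntt, chr19:41029025-41029324: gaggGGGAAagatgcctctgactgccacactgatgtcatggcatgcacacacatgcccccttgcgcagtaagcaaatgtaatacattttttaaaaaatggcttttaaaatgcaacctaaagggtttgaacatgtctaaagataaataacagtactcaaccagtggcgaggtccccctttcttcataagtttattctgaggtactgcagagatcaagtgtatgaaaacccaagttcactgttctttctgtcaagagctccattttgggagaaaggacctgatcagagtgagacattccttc

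Ebf1, first start, chr11:44617850-44618149: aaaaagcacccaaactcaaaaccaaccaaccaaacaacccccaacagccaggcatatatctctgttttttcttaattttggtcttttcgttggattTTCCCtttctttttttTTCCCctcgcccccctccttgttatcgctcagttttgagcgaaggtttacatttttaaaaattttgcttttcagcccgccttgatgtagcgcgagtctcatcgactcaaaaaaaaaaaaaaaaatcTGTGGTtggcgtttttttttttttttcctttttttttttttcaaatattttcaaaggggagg

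Ebf1, second start, chr11:44619978-44620277: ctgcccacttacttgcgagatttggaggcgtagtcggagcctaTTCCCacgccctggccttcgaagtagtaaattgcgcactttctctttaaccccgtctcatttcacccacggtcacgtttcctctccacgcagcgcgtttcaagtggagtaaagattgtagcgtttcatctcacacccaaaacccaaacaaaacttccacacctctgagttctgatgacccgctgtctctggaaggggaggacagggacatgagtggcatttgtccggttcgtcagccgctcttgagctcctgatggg

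The Dntt window held 1 match, GGGAA at 246 bases before the start. The first Ebf1 window held TGTGGT at 12 bases before the start and TTCCC, the reverse complement of GGGAA, at 154 and 138 bases before it. The second Ebf1 window held TTCCC at 207 bases before the start. Over all 32851 promoters of the table, 16.8% held the RUNX word, 13.7% the EBF word, 51.4% the E-box and 62.7% the Ikaros word. Among the other genes, the RUNX word stood in the Rag1 window, at 81 and 67 bases before the start, and in the Igll1 window at 123 bases, and the EBF word stood in the Igll1 window alone, at 231 bases. A match is a run of letters and not a shown site, and a window without a match says nothing of binding elsewhere.

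Dntt was lower with TEL-AML1 than with the empty vector at both times of treatment, by 2.58-fold at day 5 and 2.87-fold at day 7. All 6 TEL-AML1 arrays had Dntt between 44.9 and 52.0, under the 40th percentile of all probe sets (60.1), and the deposited table holds no call of signal above background. Where TEL-AML1 cells had no signal above background, these folds are lower limits. With the empty vector, Dntt was called higher under treatment at both times and Ebf1 at day 5. These calls under treatment depended on single arrays, as given below, and Ebf1 followed stromal RNA over the treated arrays. The other 6 measured genes, Pax5, Rag2, Igll1, Vpreb1, Cd79a and Cd79b, passed no test in any of the 10 comparisons. Values are the deposited linear intensities, and fold changes are on the scale of log2(intensity + 16), which understates the change of dim genes. A gene was called at an adjusted p under 0.05 in limma with Benjamini-Hochberg adjustment over the 18820 genes.

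In the comparison of the vectors, 0 of the 8 genes was called untreated, where 5.88% of all genes were called. At day 5 and at day 7, 1 of 8 was called lower, where 2.73% and 3.94% of all genes were called lower and 4.67% and 7.34% in either direction. In the mean of conditions 1 of 8 was called lower, where 8.36% of all genes were, and 14.7% were called in either direction. Of treated against untreated empty vector cells, 2 of 8 were called higher at day 5 and 1 of 8 at day 7, where 5.56% and 3.82% of all genes were called higher and 10.2% and 9.36% in either direction. In TEL-AML1 cells 0 of 8 was called at either day, where 1.09% of all genes were called at day 5 and 4.95% at day 7. Neither comparison of the responses called any of the 8, and 0.0266% of all genes were called at each time. The median log2 fold change of the 8 genes was -0.02 at day 5 and -0.047 at day 7 between the vectors, against -0.011 and -0.024 for all genes. A count of 1 or 2 among 8 genes is not read as a property of the list. The shares themselves moved when 1 array was left out. Without empty vector untreated replicate 2, 181 and 242 genes were called in empty vector cells at day 5 and day 7, against 1917 and 1761. Without TEL-AML1 untreated replicate 2, 78 and 175 were called in TEL-AML1 cells, against 206 and 931. The number at day 7 in empty vector cells was 605 without empty vector day 7 replicate 1 and 2753 without replicate 2.

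**Figure D1:**
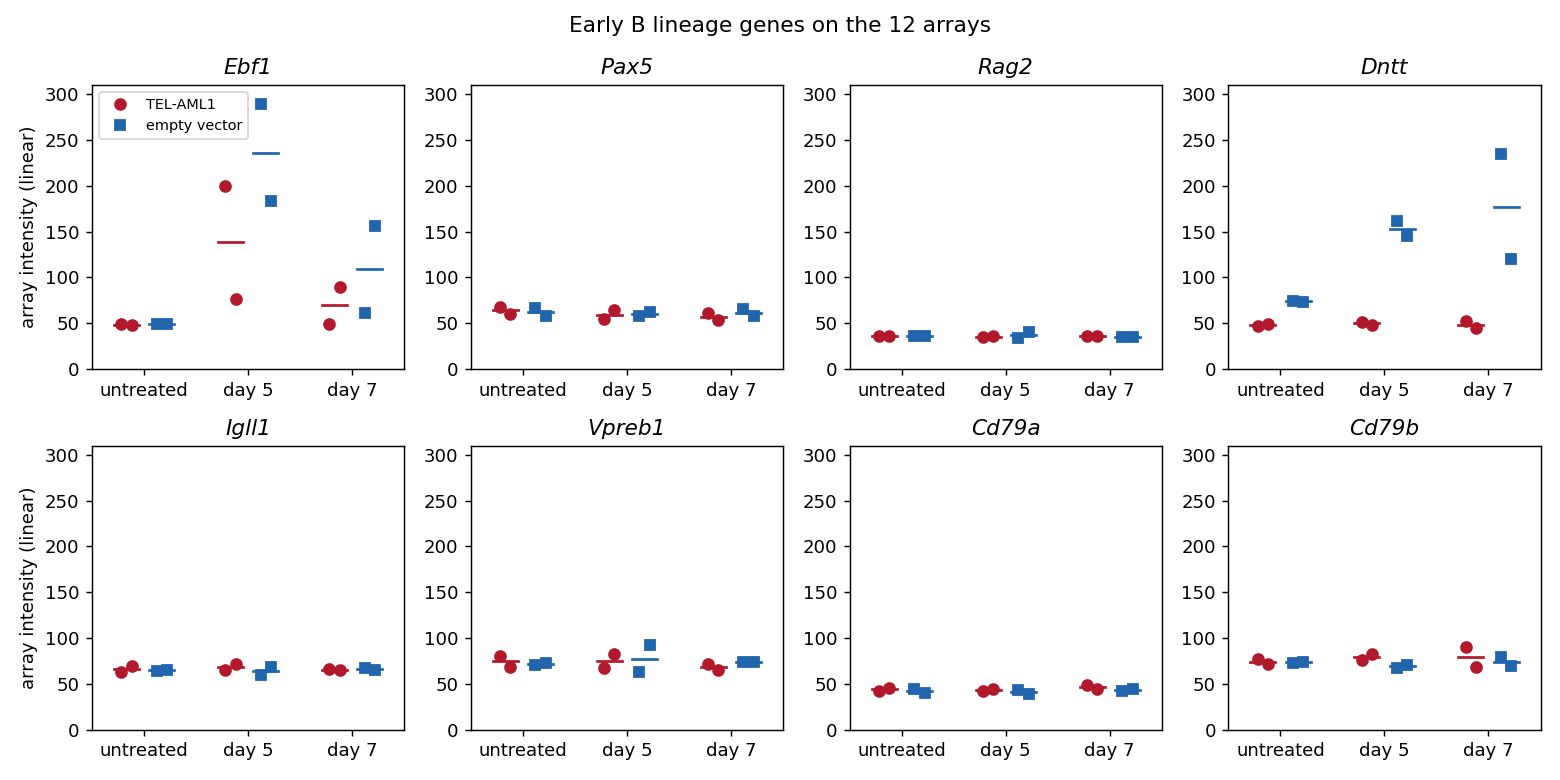
Deposited intensity (y axis, linear, in the authors' units) of the 8 measured genes on the 12 arrays, by vector and condition; points are arrays and dashes are means of 2. Dntt stayed between 44.9 and 52.0 on all TEL-AML1 arrays and lay between 73.5 and 235 on the empty vector arrays.

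Ebf1 (chromosome 11) encodes the factor that commits progenitors to the B lineage. On TEL-AML1 arrays its intensity was 49.1 and 47.6 untreated, 200 and 76.8 at day 5, and 49.2 and 89.6 at day 7. On empty vector arrays it was 49.2 and 48.5 untreated, 289 and 183 at day 5, and 60.8 and 156 at day 7. The 4 untreated arrays lay within a narrow band, every treated array but TEL-AML1 day 7 replicate 1 lay clearly above it, and replicates of 1 treated group differed widely.

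In empty vector cells Ebf1 averaged 236 ± 74.8 at day 5 and 48.9 ± 0.527 untreated (SD, n = 2 each), a log2 fold change of 1.93 ± 0.45 (SE; adjusted p = 0.0297 in limma, Benjamini-Hochberg). This call ended without any of 6 arrays: the adjusted p was 0.130 and 0.168 without empty vector untreated replicates 1 and 2, 0.117 and 0.0604 without empty vector day 5 replicates 1 and 2, and 0.0542 without either untreated TEL-AML1 array. It also ended with a trended and robust variance (adjusted p = 0.0629). At day 7 the log2 fold change was 0.83 (95% interval -0.18 to 1.84; limma adjusted p = 0.330), and no call was made. In TEL-AML1 cells Ebf1 averaged 138 ± 86.9 at day 5 and 48.4 ± 1.04 untreated, a log2 fold change of 1.14 with an interval of 0.13 to 2.15 and a limma adjusted p of 0.357. At day 7 the TEL-AML1 value was 0.37 (-0.64 to 1.38; limma adjusted p = 0.824).

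Between the vectors, Ebf1 was not called in any condition. The log2 fold change of TEL-AML1 over empty vector was -0.011 untreated, -0.80 at day 5 (95% interval -1.81 to 0.21; limma adjusted p = 0.448) and -0.47 at day 7 (-1.48 to 0.54; adjusted p = 0.687). The arrays of the vectors overlapped at both times. Same-numbered arrays of the vectors within a condition deviated together, and with that pairing as a replicate block the day 5 difference, at the same size, had an adjusted p of 0.0228 and the mean over conditions, -0.43, one of 0.0148. With the block and the stromal RNA described next in 1 fit, the values were -0.31 (adjusted p = 0.686) and -0.13 (adjusted p = 0.679).

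Ebf1 followed stromal RNA over the 8 treated arrays. The stromal value of an array is the mean log2 intensity of Fn1, Bgn and Col1a1, which encode the matrix proteins fibronectin, biglycan and a collagen chain. Fn1 intensity was 1910 and 560 in TEL-AML1 day 5 arrays and 131 and 755 in TEL-AML1 day 7 arrays. It was 2249 and 1576 in empty vector day 5 arrays and 276 and 1313 in empty vector day 7 arrays, against 56.4 to 61.2 in the 4 untreated arrays. Ordered by stromal value, Ebf1 never stepped down: 49.2 at 6.88, 60.8 at 7.75, 76.8 at 8.27, 89.6 at 8.62, 156 at 9.48, 183 at 9.91, 200 at 9.97 and 289 at 10.4. The 4 untreated arrays had stromal values of 6.36 to 6.47.

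Pearson's r over the 8 treated arrays was 0.980 and Spearman's rho 1.0, each with an exact two-sided permutation p of 4.96e-05, the smallest these 8 arrays allow, and 7.44e-05 adjusted over the 3 relations computed. Without the 2 arrays farthest from the median stromal value, TEL-AML1 day 7 replicate 1 and empty vector day 5 replicate 1, r was 0.996 (exact permutation p = 0.00278, n = 6). The mean of all 21 measured OP9 stroma markers gave an r of 0.991. Both values of a point come from 1 array and share its RNA, and 8 arrays of 4 groups leave too few in a vector or a day for an r within it. At about the same stromal value, TEL-AML1 day 5 replicate 1 had 200 for Ebf1 and empty vector day 5 replicate 2 had 183.

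**Figure D2:**
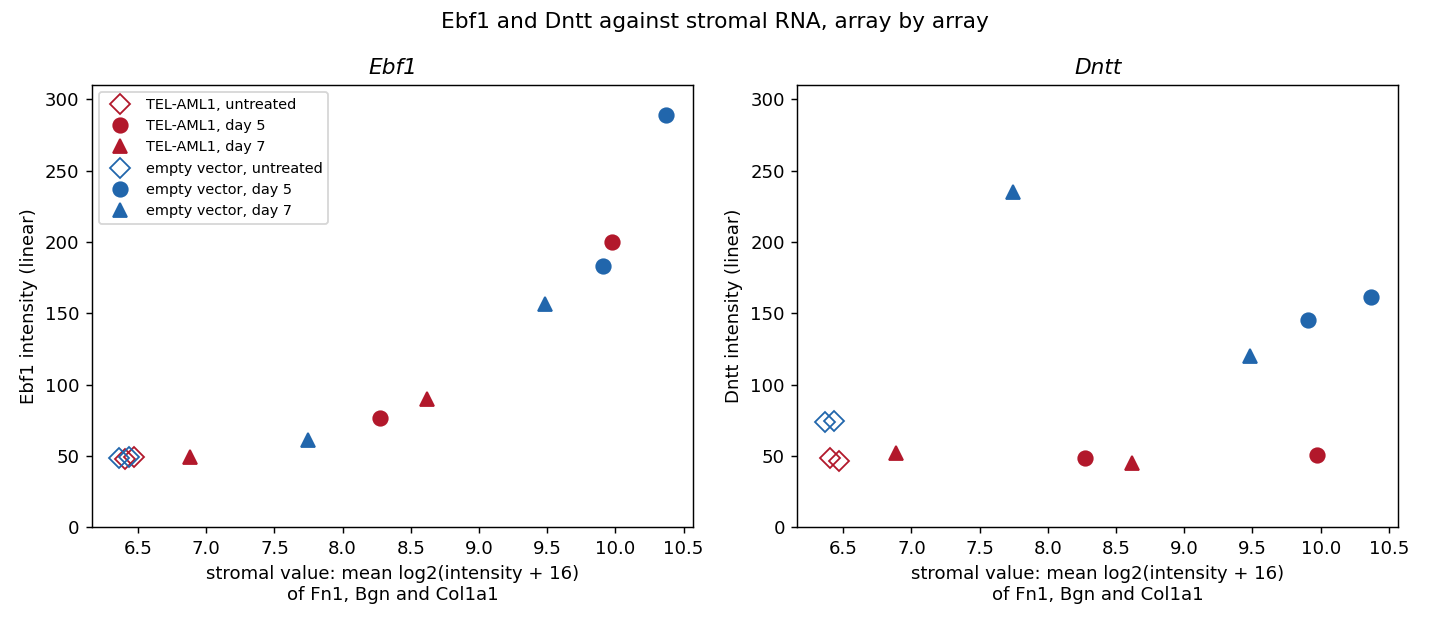
Intensity of Ebf1 and of Dntt (y axes) against the stromal value of each array (x axis, mean log2 intensity of Fn1, Bgn and Col1a1), by vector and condition, 1 point per array. Ebf1 climbs with the stromal value in both vectors. Dntt stays at 44.9 to 52.0 in TEL-AML1 arrays, under the 40th percentile of all probe sets (60.1). Such dim values cannot show whether Dntt changed with stromal RNA. In treated empty vector arrays Dntt was 235 at a stromal value of 7.75, 120 at 9.48, 145 at 9.91 and 161 at 10.4.

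With the stromal value as a covariate over all 12 arrays, the 4 treated-over-untreated log2 fold changes of Ebf1 turned negative, from -0.53 to -0.36, and none was called. Stromal values were 6.36 to 6.47 in untreated arrays and 6.88 to 10.4 in treated ones, without overlap. The covariate thus extends a straight slope from treated arrays to untreated ones, where Ebf1 was dim (47.6 to 49.2). The negative sign cannot be read as a fall of Ebf1 under treatment. Of the 21 stroma markers measured, 16 were called higher in empty vector cells at day 5 and 0 in the other 3 comparisons of treated with untreated cells. The 6 with the smallest adjusted p were Ccn2 (log2 0.96), Postn (0.61), Bgn (3.86), Fn1 (4.69), Pdgfra (1.08) and Col5a1 (0.61). The median log2 fold change of all 21 markers was 0.88 at day 5 and 0.21 at day 7 in TEL-AML1 cells, and 1.53 at day 5 and 0.55 at day 7 in empty vector cells. Between the vectors, TEL-AML1 over empty vector, the median of the 21 markers was -0.52 at day 5 and -0.33 at day 7. The only marker called between the vectors was Pdgfrb, a growth factor receptor gene, which was higher with TEL-AML1 untreated (log2 0.42), at day 7 (0.53) and in the mean of conditions (0.44). Pdgfrb intensity was 1066 to 1323 over the TEL-AML1 arrays and 776 to 946 over the empty vector arrays, untreated ones included, and it is a large part of the untreated sums given next. The summed marker intensity was 2471 to 9081 in treated TEL-AML1 arrays, 2767 to 10993 in treated empty vector arrays and 2106 to 2587 in untreated arrays. A change in the number of cells of a type and a change in RNA per cell cannot be told apart in bulk RNA. Whether Ebf1 RNA came from stromal cells or from EML1 cells was not tested.

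All 4 genes of the EBF family were measured, and Ebf3 was called beside Ebf1. Ebf3 intensity was 163 and 83.0 in TEL-AML1 day 5 arrays and 222 and 125 in empty vector day 5 arrays, against 57.6 to 64 untreated. At day 7 it was 61.7 and 81.7 with TEL-AML1 and 72.1 and 130 with the empty vector. Ebf3 was called in empty vector cells at day 5 (log2 fold change 1.28 ± 0.33 SE, limma adjusted p = 0.0392), and Ebf2 and Ebf4 were called in no comparison. Over the treated arrays Ebf3 was lowest (61.7) at the lowest stromal value, 6.88, and highest (222) at the highest, 10.4. Whether Ebf3 RNA came from stromal cells or from EML1 cells was not tested. Over the 12 arrays, the log2 values of Ebf1 correlated best with those of Cald1, Apbb2, Fscn1, Cmtm3 and Prrx1, each at a Pearson r of 0.997, out of 11993 genes compared.

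Pax5 (chromosome 4), the factor that maintains B cell identity, ran from 53.6 to 68.1 in TEL-AML1 arrays and from 57.3 to 66.2 in empty vector arrays. The groups overlapped at each time, and no array stood apart.

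Dntt (chromosome 19) was the gene on which the vectors differed. Untreated, its intensity was 46.4 and 48.8 with TEL-AML1, against 74.3 and 73.5 with the empty vector. At day 5 it was 50.7 and 48.5 with TEL-AML1, against 161 and 145 with the empty vector. At day 7 it was 52.0 and 44.9 with TEL-AML1, against 235 and 120 with the empty vector. The vectors did not overlap in any condition, and the 2 empty vector arrays of day 7 lay far apart. With 2 arrays a group such separation says little, and it also held for genes called in no comparison. These were Rag2 untreated and at day 7, Vpreb1 and Cd79a at day 7, and Cd79b at day 5. The share of all genes without overlap was not computed.

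At day 5 Dntt averaged 49.6 ± 1.61 with TEL-AML1 and 153 ± 11.1 with the empty vector (SD, n = 2 each), a log2 fold change of -1.37 ± 0.22 (SE; 95% interval -1.85 to -0.88; adjusted p = 0.00715 in limma, Benjamini-Hochberg). At day 7 it averaged 48.4 ± 5.03 with TEL-AML1 and 177 ± 81.2 with the empty vector, a log2 fold change of -1.52 ± 0.22 (-2.01 to -1.03; limma adjusted p = 0.00296). Over the mean of the 3 conditions it was lower by 2.19-fold, with the same limit from the low TEL-AML1 values (log2 -1.13 ± 0.12, limma adjusted p = 0.000234). These 3 calls held without each of the 12 arrays in turn, with an adjusted p of 7.12e-05 to 0.0422 at day 5 and 6.28e-05 to 0.0255 at day 7. With only the groups compared in the fit, the day 7 call ended (adjusted p = 0.108). With the stromal value as a covariate the differences were -1.55 at day 5 (adjusted p = 0.00342) and -1.68 at day 7 (adjusted p = 0.00138). With the pairing block and the stromal value together, which leaves 2 residual degrees of freedom, the adjusted p was 0.165 at day 5 and 0.0556 at day 7, and 0.0255 over the mean of conditions.

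**Figure D3:**
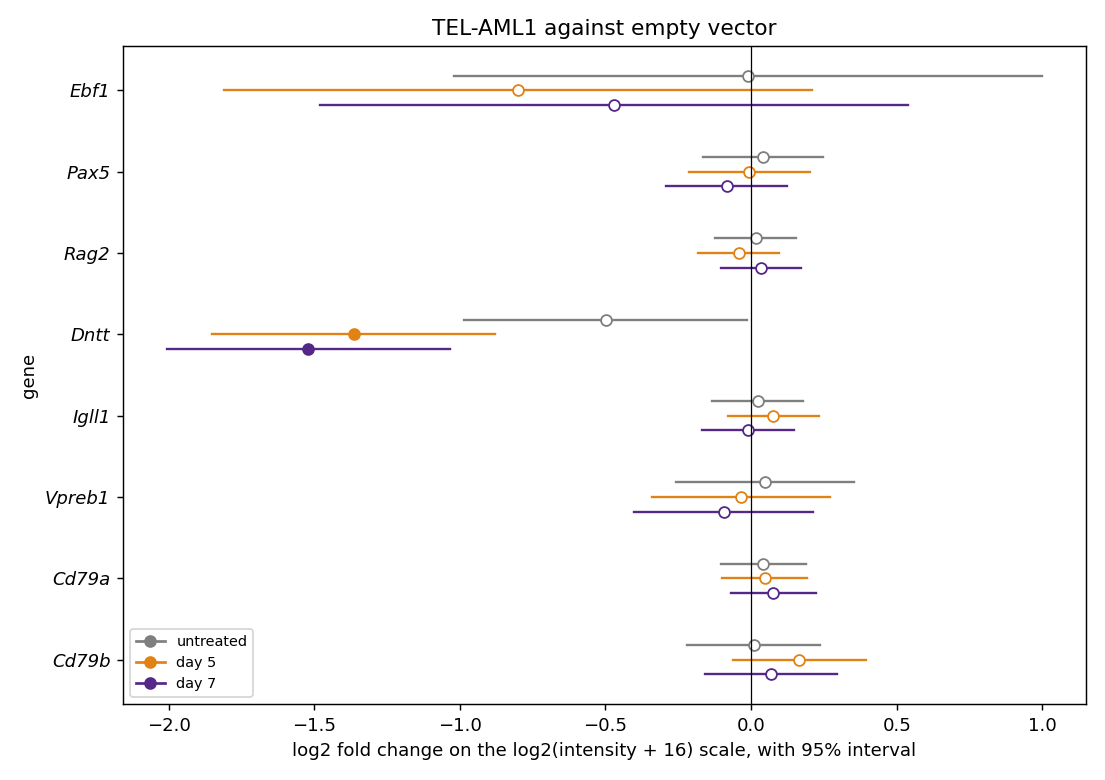
Log2 fold change of TEL-AML1 over empty vector (x axis, log2 units) for the 8 measured genes untreated, at day 5 and at day 7. Bars are 95% intervals, and filled points passed the test. Only Dntt has filled points, at day 5 and at day 7.

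Before treatment the difference was smaller, and it was not called. Dntt averaged 47.6 ± 1.70 with TEL-AML1 and 73.9 ± 0.591 with the empty vector, a log2 fold change of -0.50 ± 0.22 (interval -0.99 to -0.01; limma adjusted p = 0.324). With only the untreated groups in the fit the adjusted p was 0.000735, and without either empty vector day 7 array it was 0.00351.

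Among empty vector cells Dntt rose 1.88-fold at day 5 (log2 0.91 ± 0.22, limma adjusted p = 0.0313) and 2.05-fold at day 7 (log2 1.04 ± 0.22, adjusted p = 0.0192). The 2 comparisons share the untreated arrays. The day 5 call ended without any of 6 arrays. Its adjusted p was 0.136 and 0.174 without empty vector untreated replicates 1 and 2, 0.108 and 0.0911 without empty vector day 5 replicates 1 and 2, and 0.0571 without either untreated TEL-AML1 array. It also ended with a pseudocount of 64 (0.0563), with every probe set by itself (0.0521) and with the stromal covariate (log2 1.59, adjusted p = 0.0822). Between treated and untreated arrays the covariate has the limit given above for Ebf1. The day 7 call ended without empty vector untreated replicate 1 (0.101) or 2 (0.121) and with only the compared groups (0.143). Its size was 0.60 without empty vector day 7 replicate 1 and 1.48 without replicate 2.

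In TEL-AML1 cells no change of Dntt was called. The log2 fold change against untreated cells was 0.04 at day 5 (95% interval -0.44 to 0.53; limma adjusted p = 0.976) and 0.02 at day 7 (-0.47 to 0.50; adjusted p = 0.988). The difference between the vectors' responses was -0.87 ± 0.31 at day 5 (interval -1.55 to -0.18; unadjusted p = 0.0190 and adjusted p = 0.622 in limma). At day 7 it was -1.02 ± 0.31 (-1.71 to -0.33; unadjusted p = 0.00826 and adjusted p = 0.427 in limma). Neither passed after adjustment. The day 5 difference passed with only the compared groups (adjusted p = 0.0260) and without either empty vector day 7 array (0.0313), and the day 7 difference passed without empty vector day 7 replicate 2, at -1.46 (0.00847).

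**Figure D4:**
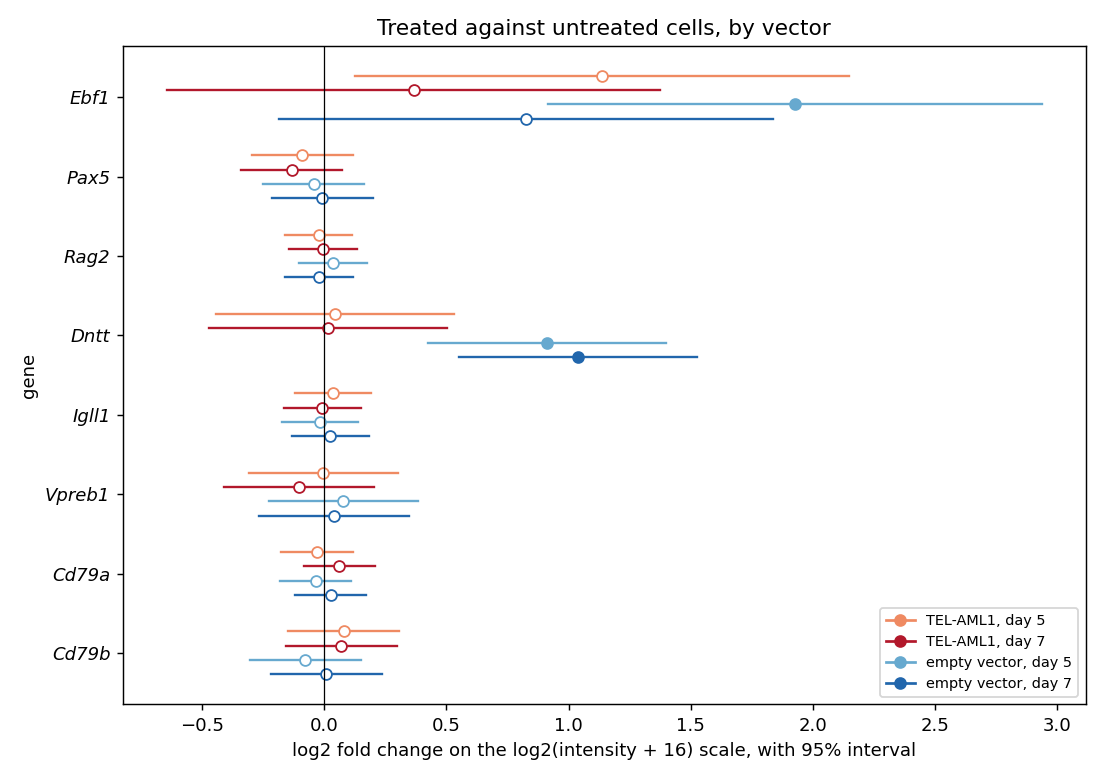
Log2 fold change of treated over untreated cells (x axis, log2 units) for the 8 measured genes at day 5 and day 7 in each vector; bars are 95% intervals, and filled points passed the test. Filled points are Ebf1 and Dntt at day 5 and Dntt at day 7, all in empty vector cells.

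The log2 values of Dntt over the 12 arrays correlated best with those of Spo11 (Pearson r = 0.989), Hip1 (0.983), Creb5 (0.979), Sap25 (0.975) and Cdc42bpb (0.969), of 11993 genes compared. These are descriptions over arrays that share libraries and groups.

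Rag2 (chromosome 2), the partner of RAG1 in cutting, ran from 34.9 to 36.4 in TEL-AML1 arrays and from 33.7 to 40.1 in empty vector arrays. Igll1 (chromosome 16) ran from 62.9 to 71.3 in TEL-AML1 arrays and from 59.5 to 68.0 in empty vector arrays. Vpreb1 (chromosome 16) ran from 64.9 to 82.1 in TEL-AML1 arrays and from 63.2 to 92.0 in empty vector arrays. These 3 genes, which act in recombination and in the surrogate light chain, overlapped between the vectors and between treated and untreated cells when conditions were pooled. Within a condition, the vectors did not overlap for Rag2 untreated and at day 7 or for Vpreb1 at day 7, and neither gene was called. Treated and untreated arrays of a vector did not overlap for Rag2 in TEL-AML1 cells at day 5 and empty vector cells at day 7. The same held for Vpreb1 in empty vector cells at day 7. With 2 arrays a group such separation says little, as given for Dntt. Vpreb1 has a near-identical copy, Vpreb2, with which its probe set may share signal, so its values are uncertain.

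Cd79a (chromosome 7) ran from 42.2 to 49.1 in TEL-AML1 arrays and from 39.5 to 44.7 in empty vector arrays. Cd79b (chromosome 11) ran from 68.6 to 89.8 in TEL-AML1 arrays and from 67.1 to 78.9 in empty vector arrays. Neither signalling chain was called in any comparison. With 2 arrays a group, the vectors did not overlap for Cd79a at day 7 (mean 46.9 with TEL-AML1, 43.6 with the empty vector). Nor did they for Cd79b at day 5 (mean 79.4 with TEL-AML1, 69.0 with the empty vector). In empty vector cells, Cd79b at day 5 also did not overlap the untreated arrays (mean 73.6). Such separation says little with 2 arrays a group.

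For Pax5, Rag2, Igll1, Vpreb1, Cd79a and Cd79b together, 60 tests gave log2 fold changes from -0.14 to 0.17, with 95% intervals inside -0.58 to 0.48. The smallest adjusted p was 0.448 and 0 had an unadjusted p under 0.05 (limma). Of the 8 measured genes, 6 passed a filter at the 40th percentile of all probe sets, an intensity of 60.1, and Rag2 and Cd79a did not. The filter took the mean over the 12 arrays. Dntt passed through the empty vector arrays alone, as it was 44.9 to 52.0 on the TEL-AML1 arrays. Ebf1 passed through treated arrays alone, as it was 47.6 to 49.2 untreated. Pax5 passed narrowly, with a mean of 60.6. Whether the dim probe sets measured their transcripts at all is not shown by these intensities.

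Other genes of the pathway were read from lists, with the shares of all genes called in each comparison as above. Over the 10 comparisons the median log2 fold change ran from -0.022 to 0.0047 for further B lineage genes, -0.078 to 0.094 for recombination partners, -0.021 to 0.080 for upstream factors and -0.066 to 0.025 for lymphoid priming, and from -0.024 to 0.0098 for all genes. Of 28 further B lineage and receptor signalling genes, 24 had a probe set. Untreated, TEL-AML1 cells had higher Cd53 (log2 0.45) and Bank1 (0.25), and lower Cd72 (-0.60) and Pik3ap1 (-1.01), an adaptor of B cell receptor signalling. At day 5 none of the 24 was called between the vectors, and at day 7 only Cd53 (0.48). Cd53 (0.42) and Bank1 (0.12) were higher and Cd72 (-0.36) and Pik3ap1 (-0.46) lower in the mean of conditions. In empty vector cells Syk, the kinase that acts below CD79A and CD79B, was higher at day 5 (0.43) and day 7 (0.48), and Plcg2, the phospholipase that follows it, was lower (-0.37 and -0.43). Cd37 was higher at day 7 (0.44), Cd74 lower at day 5 (-0.24) and Pik3ap1 lower at both times (-0.62 and -0.65). In TEL-AML1 cells the only call among them was lower Bank1 at day 7 (-0.25).

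Of 13 recombination and end joining partners, 12 were measured. Xrcc5, a Ku subunit that binds broken ends, was higher with TEL-AML1 at day 5 (log2 0.52), lower under treatment in TEL-AML1 cells at day 7 (-0.67) and lower in empty vector cells at day 5 (-0.45) and day 7 (-0.55). Polm, a polymerase related to Dntt, was higher in empty vector cells at day 5 (0.51), and Hmgb1 was lower with TEL-AML1 untreated (-0.38). Xrcc5 was higher (0.40) and Hmgb1 lower (-0.32) with TEL-AML1 in the mean of conditions. Hmgb1 has 24 probe sets, and both of its values come from the brightest alone. Whether the others changed alike is not given here. Of 14 genes of lymphoid priming, 10 were measured and 1 is Dntt. Besides Dntt, Ccr9 and Satb1 were called, both lower with TEL-AML1 in the mean of conditions (-0.34 each). Ccr9 was dim, with a mean intensity of 44.8 over the 12 arrays, under the 40th percentile of all probe sets.

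All 25 upstream factors and receptors were measured. Bach2, a transcriptional repressor active in developing B cells, was higher with TEL-AML1 at day 5 (log2 0.46) and day 7 (0.63), and in TEL-AML1 cells at day 7 against untreated ones (0.32). Gfi1 was higher untreated (0.37) and at day 7 (0.42), and Spi1, which encodes PU.1, at day 5 (0.34). In the mean of conditions 3 of the 25 were higher, again Bach2 (0.46), Gfi1 (0.33) and Spi1 (0.24), and 4 were lower, where 14.7% of all genes were called and 8.36% were lower. Lef1 (-0.36), Foxo1 (-0.27), Tcf3, the gene of the E2A proteins (-0.18), and Ikzf1, the gene of Ikaros (-0.13), were the lower ones. Under treatment Runx1 was higher at day 7 in TEL-AML1 cells (0.46) and in empty vector cells (0.49), and Sox4 was higher at day 7 in TEL-AML1 cells (0.62). Myb (0.27) and Tcf12 (0.25) were higher in empty vector cells at day 7, and Spi1 was lower at day 5 (-0.43). The genes of the receptors for the 2 cytokines, named here after their values were seen, were called in no comparison. Flt3 ran from 45.3 to 55.9 over the 12 arrays. Il7r ran from 51.7 to 73.9 on 11 arrays and stood at 159 on TEL-AML1 day 7 replicate 1.

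The progenitor label was checked against its markers: 9 of 10 progenitor markers were measured, with mean intensities of 643 for Spi1 to 2551 for Kit. Their summed intensity was 11567 to 12964 in treated TEL-AML1 arrays, 11023 to 12222 in treated empty vector arrays and 11390 to 11980 in untreated arrays. Their calls went both ways. With TEL-AML1, Gata2 was higher untreated (log2 0.52), at day 7 (0.61) and in the mean of conditions (0.50), Ptprc at day 7 (0.48) and in the mean (0.21), and Lmo2 in the mean (0.23), besides Spi1 as given above. Under treatment of empty vector cells, Cd34 (-0.30) and Ptprc (-0.33) were lower at day 5, as was Spi1, and Ptprc was lower at day 7 (-0.34). Gfi1b was higher at day 7 in TEL-AML1 cells (0.73) and at day 5 (0.59) and day 7 (0.70) in empty vector cells. Of the myeloid markers, 5 of 5 measured, Itgam was higher with TEL-AML1 at day 5 (0.42) and day 7 (0.62), and at day 7 of treatment in TEL-AML1 cells (0.41). In the mean of conditions Itgam was higher (0.44) and Mpo (-0.24) and Csf1r (-0.19) were lower with TEL-AML1, and Mpo was lower untreated (-0.37). The 5 measured of 7 T cell markers, the 2 of 5 erythroid ones and the 8 of 12 genes of unrelated tissues, whose means were 41.6 to 122, were called in no comparison. The 2 erythroid markers were not flat, however. Their median log2 fold change under treatment was 0.73 at day 5 and 0.83 at day 7 in TEL-AML1 cells. It was 0.25 and 0.26 in empty vector cells. Between the vectors it was 0.064 untreated, 0.53 at day 5 and 0.63 at day 7. Array medians ran from 68.1 to 72.9, and arrays of 1 group correlated at 0.989 to 0.998. Whether any of these values played a part in the difference of Dntt was not tested, apart from the stromal covariate above.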

How the data were processed

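Total RNA of 12 EML1 samples was measured on Affymetrix arrays from biotin-labelled cRNA, per the labels' protocols. The deposited table holds 1 linear intensity per probe set and array, for 35556 probe sets. How the authors corrected background, summarised probes and normalized was not given in the sources used here. Arrays have no read depth, and their number limits the precision.

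Probe sets were named by the platform annotation: 21218 list 1 gene, 1881 several and 12457 are unlisted. Genes were matched by Entrez identifier to the GRCm38.p6 gene table (21185 probe sets). The brightest probe set stood for each of 18820 genes, with no filter on dim genes.

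Group labels come from the sample titles. limma 3.58.1 in R 4.3.3 (lmFit, eBayes) was fitted to log2(intensity + 16) over 6 group means, with 6 residual and 3.30 prior degrees of freedom, and adjusted by Benjamini-Hochberg within each of 10 contrasts. The fit was tested on simulated data. Correlations used SciPy 1.17.1.

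Members and gene lists were chosen with earlier results of these data known. Named genes were all members, up to 6 called genes per list and contrast, by adjusted p, and the 5 most alike genes per called member.

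Replicate numbers come from the titles. Same-numbered arrays of the vectors deviated from their group means together, at r = 0.370 untreated, 0.534 at day 5 and 0.359 at day 7, so the number was used as a block within each condition as an alternative. Other alternatives were quantile normalization, median centring, a 40th percentile filter, pseudocounts (1, 64), averaged probe sets, separate probe sets, a trended and robust variance, only the compared groups, stromal RNA as a covariate, a block over all groups, and leaving out each array.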

Additional observations from a re-analysis of the deposited data

How the results depend on the processing

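The vector differences of Dntt at day 5, at day 7 and in the mean of conditions stayed negative under every alternative run. Ebf1 in the vector comparison turned to 0.0051 untreated without TEL-AML1 untreated replicate 2 (-0.028 to 0.0051 without each array). At day 7 it turned to 0.056 with the stromal covariate, 0.057 with treated arrays only and that covariate, and 0.11 without empty vector day 7 replicate 2 (-1.06 to 0.11 without each array). The covariate gave Ebf1 under treatment -0.36 at day 5 and -0.53 at day 7 with the empty vector, -0.51 and -0.44 with TEL-AML1, and 0.091 for the difference of responses at day 7, which was 0.12 without empty vector day 7 replicate 2 (-1.04 to 0.12 without each array). Stromal values of treated and untreated arrays did not overlap, so the signs under treatment with the covariate are not read. Dntt in TEL-AML1 cells at day 7 turned to -0.0012 with median centring, -0.011 without TEL-AML1 untreated replicate 1 and -0.063 without TEL-AML1 day 7 replicate 1 (-0.063 to 0.096 without each array).

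Of the 8 genes, the number called between the vectors at day 5 was 2 with the block within each condition and 0 with block and covariate, against 1 as reported. At day 7 it was 0 with only the compared groups and 0 with block and covariate, against 1. In the mean of conditions it was 2 with the block, against 1, but there the block called 4013 of all genes, against 2774. Untreated, the number among the 8 genes was 1 with only the compared groups, against 0. In empty vector cells at day 5 it was 1 with pseudocount 64, with every probe set or with a trended variance, 0 with the covariate, and 0 to 2 without each array in turn. At day 7 it was 0 with only the compared groups, and 0 to 1 without each array. The difference of responses gave 1 at day 5 with only the compared groups, and 0 to 1 without each array at both times, as did the untreated vector comparison. The cause of these changes was not tested.

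Over all genes the number called at day 5 between the vectors was 1784 with the block within each condition, 401 with treated arrays only, 316 with these and the covariate, 261 with only the compared groups and 90 with block and covariate, against 878. At day 7 these were 2196, 696, 645, 265 and 472, against 1381. In the mean of conditions block and covariate left 1056 of 2774, and untreated the compared groups alone gave 2399, against 1107. In empty vector cells the covariate left 77 of 1917 at day 5, and only the compared groups 154 of 1761 at day 7. In TEL-AML1 cells at day 5 the covariate left 50 and every probe set gave 482, against 206, and at day 7 only the compared groups gave 1626, against 931. Without 1 array of a compared group, the vector comparisons gave as few as 479 (TEL-AML1 untreated replicate 2), 444 (empty vector day 5 replicate 2) and 757 (TEL-AML1 day 7 replicate 1) untreated, at day 5 and at day 7. Treated cells gave 181 to 1126 with the empty vector at day 5 and 242 to 2753 at day 7, and 78 to 323 and 175 to 1482 with TEL-AML1, where 1 array moved the number by over 1.5 times. The differences of responses, 5 calls each, ran from 0 to 23 at day 5 and 0 to 83 at day 7. A block of crossed day 5 numbers was picked after weak r with untreated arrays was seen (empty vector -0.197, TEL-AML1 -0.186). Its calls, 2 and 0 of the 8 genes and 2474 and 223 of all, against 1917 and 206, decide nothing. The block within each condition changed no other call of the 8. Ebf1 has only 1 probe set.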
